A study of Mus musculus with 16 samples.

Results

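The genes described here encode 9 mitochondrial enzymes or enzyme subunits of the citric acid cycle and of pyruvate entry into it: Pdha1, Cs, Idh3a, Idh2, Ogdh, Dlst, Suclg1, Fh1 and Mdh2. They were picked by gene symbol, with earlier results of these data known. All 9 were found among the 35502 genes of the deposited count table, and all 9 were among the 13379 genes with enough counts to be tested. Liver RNA of 16 mice was sequenced, with 1 library from each mouse and 4 mice in each of 4 groups. Mat.LERKO mice were labelled mature and carried Cre, and their controls, Mat.Con, were labelled mature and carried none. Imm.LERKO mice were labelled immature and carried Cre, and Imm.Con mice were labelled immature and carried none. LERKO stands for a liver-specific knockout of oestrogen receptor alpha, the product of Esr1, and the control mice are described as floxed. The sources used here do not give the promoter that drives Cre, nor strain, age or sex. They also leave unsaid if the stage label refers to the time of knockout or to the time the tissue was taken. The series title names liver mitochondrial function, fat accumulation and gene expression as what was compared before and after sexual maturity.

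The citric acid cycle oxidises the acetyl group of acetyl-CoA to carbon dioxide in the mitochondrial matrix and passes the electrons to the respiratory chain as NADH and as reduced flavin. Pyruvate dehydrogenase makes acetyl-CoA from pyruvate, and citrate synthase joins that acetyl group to oxaloacetate. In hepatocytes the cycle also supplies building blocks: citrate leaves the mitochondrion for fatty acid synthesis, and malate or oxaloacetate is drawn off for gluconeogenesis.

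All values below are CPM, a gene's share of a library's counts scaled to a fixed total, after scaling of each library by TMM, edgeR's correction for library composition, unless another scale is named. Total counts ran from 18123974 to 23213905 per library. Esr1, the targeted gene, was at 13.9 to 19.1 CPM in Mat.LERKO livers, against 66.7 to 110 CPM in Mat.Con livers. In Imm.LERKO livers it was at 10.7 to 16 CPM, against 55.3 to 89 CPM in Imm.Con livers, so every library matched its genotype label. The stage label was not checked by Esr1, whose ranges overlapped between stages. The summed level of 6 hepatocyte markers ran from 80988 to 146404 CPM over all libraries. Some libraries stand apart. In library 4 of Mat.LERKO the acute-phase gene Saa1 was at 19031 CPM, against at most 113 CPM in any other library, and its TMM factor was 0.852, the lowest of all. The summed level of 14 skeletal muscle markers, none of them at 0 in every library, was 827, 344 and 59.1 CPM in libraries 1, 2 and 4 of Mat.Con and 163 CPM in library 4 of Imm.LERKO, against 0.502 to 2.13 CPM in the remaining libraries. In library 4 of Imm.LERKO the lipogenic gene Acly was at 1978 CPM, against at most 580 CPM in the others. Saa1 and Acly were singled out after their values were seen.

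The promoters of Cs and Fh1 are shown because these genes had the largest differences between groups, and a promoter of Ogdh because it is one of the few with a match to a searched motif. Each line gives the 250 bases before a transcription start from RefSeq, build GRCm38.p6, 5′ to 3′ on the gene's own strand: chr10:128337477-128337726 on the plus strand for Cs, chr1:175625636-175625885 on the minus strand for Fh1 and chr11:6292308-6292557 on the plus strand for Ogdh. Capitals mark a match to GCGCATGCG, a motif of nuclear respiratory factor 1 (NRF1), a known activator of many nuclear genes for mitochondrial proteins.
Cs: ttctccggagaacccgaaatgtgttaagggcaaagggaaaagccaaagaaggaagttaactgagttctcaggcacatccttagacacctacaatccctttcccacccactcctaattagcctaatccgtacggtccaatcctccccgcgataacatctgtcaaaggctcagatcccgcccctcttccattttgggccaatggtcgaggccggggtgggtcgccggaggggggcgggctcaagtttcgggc
Fh1: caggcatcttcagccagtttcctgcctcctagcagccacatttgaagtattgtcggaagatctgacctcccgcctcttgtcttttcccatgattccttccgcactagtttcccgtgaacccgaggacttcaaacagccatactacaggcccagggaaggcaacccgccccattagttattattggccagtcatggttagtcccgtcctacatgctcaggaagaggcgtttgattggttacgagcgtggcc
Ogdh: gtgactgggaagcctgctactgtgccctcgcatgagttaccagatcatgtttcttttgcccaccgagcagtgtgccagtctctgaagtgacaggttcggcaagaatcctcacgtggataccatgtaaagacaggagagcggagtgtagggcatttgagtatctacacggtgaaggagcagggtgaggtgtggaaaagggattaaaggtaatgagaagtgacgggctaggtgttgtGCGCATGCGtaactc
The GC content was 55.2% for Cs, 52.8% for Fh1 and 51.6% for this Ogdh promoter, against a median of 52.4% over all promoters in the RefSeq table. That table held promoters for 8 of the 9 genes, and Idh3a is named only. The 8 genes had 13 start sites, 6 of them of Ogdh. Motifs were searched on both strands in windows from 250 bases before to 50 bases after each start. The NRF1 motif occurred in 2 overlapping Ogdh windows, 15 and 36 bases before the start, and in 1.75% of all 32851 windows. CCGGAAGT, a motif of ETS factors including GABP, occurred in the Dlst window, directly at the start, and in 3.89% of all windows. No window of the 8 genes held TCAAGGTCA, a motif of oestrogen-related receptors (0.423% of all windows), AAGATGGCG, a motif of YY1 (1.4%), or the oestrogen receptor motif of GGTCA and TGACC with 3 bases between (0.07%). None of these motifs contains another of them whole, apart from the GGTCA element within the oestrogen-related receptor motif. A match says only that the letters occur in the window.

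Levels differed between the genes by about an order of magnitude. Compared per length of merged exons, as CPM per kilobase (RPKM, mean ± SD over the 16 libraries), Idh2 had the highest level at 58.6 ± 11.1 RPKM and Idh3a, a subunit of the NAD-linked isocitrate dehydrogenase, the lowest at 5.75 ± 0.64 RPKM. Between them lay Mdh2 at 48.5 ± 4.81, Fh1 at 43.7 ± 7.05, Ogdh at 42.7 ± 4.05, Suclg1 at 42.3 ± 4.01, Pdha1 at 30.7 ± 3.74, Cs at 17.2 ± 3.14 and Dlst at 17.1 ± 1.52 RPKM. Idh2 and Mdh2, the run of Mdh2, Fh1, Ogdh and Suclg1, and the pair Cs and Dlst did not differ as neighbours beyond their spread, whereas the steps from Suclg1 to Pdha1, from Pdha1 to Cs and from Dlst to Idh3a were larger than the SDs. The order depends on the length used. With the length of the principal transcript, an alternative added after the levels were seen, Suclg1 led at 129 RPKM, then Mdh2 at 119 and Idh2 at 87 RPKM, followed by Dlst at 59.1 RPKM. Idh3a was lowest by either length, at 12.1 RPKM by the principal transcript.

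Within groups, every gene but Idh2 varied less than or about as much as the median gene. The pooled SD of log2 CPM between libraries of a group was 0.12 for Suclg1, 0.13 for Dlst and for Mdh2, 0.15 for Ogdh, 0.16 for Idh3a, 0.18 for Pdha1, 0.21 for Fh1, 0.24 for Cs and 0.34 for Idh2, against a median of 0.24 over all tested genes. Of the tested genes, 9.54% had a smaller SD than Suclg1 and 68.6% a smaller SD than Idh2. The comparison was with all tested genes, not with genes of similar counts. Each of the 9 had at least 464 counts in every library, and the part of count level in these SDs was not tested.

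**Figure D1:**
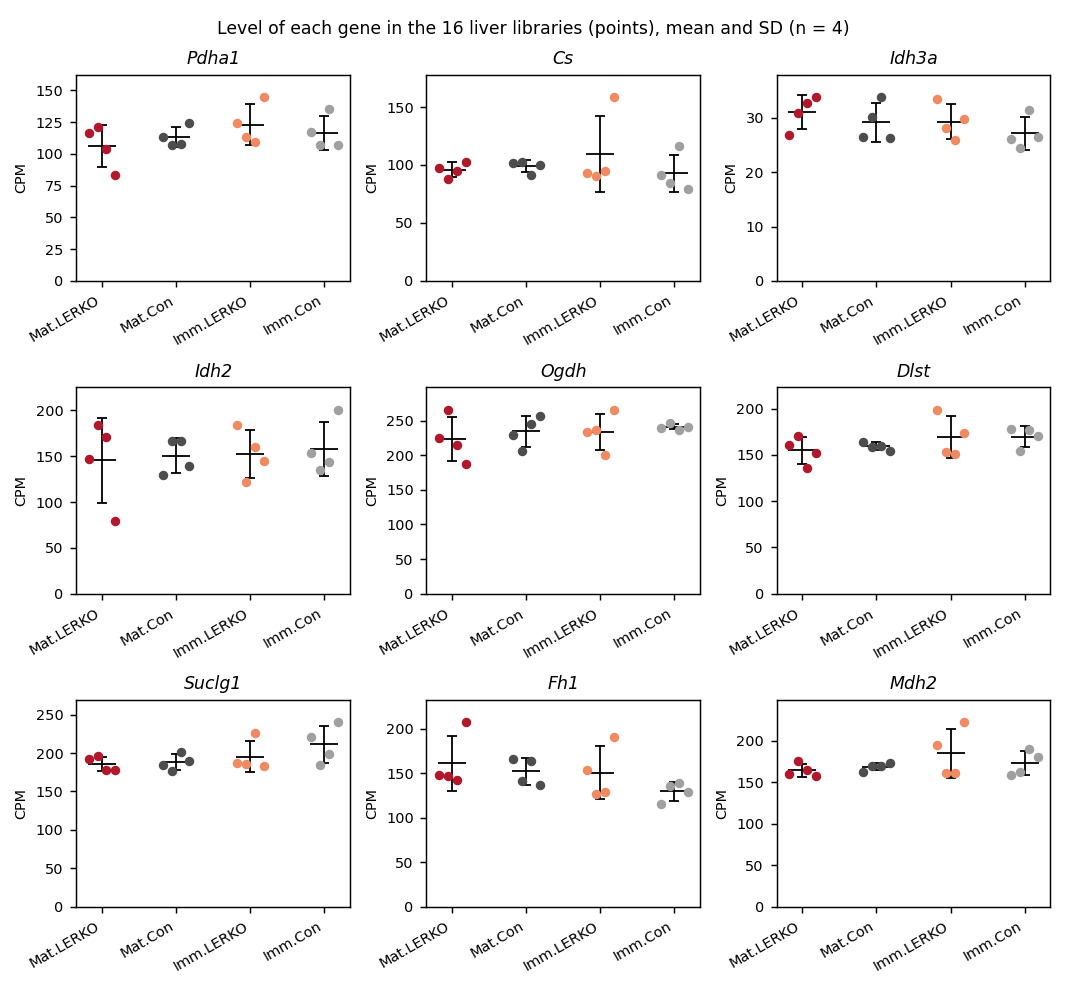
Level of each of the 9 genes in CPM (y axis, from 0) in each of the 16 liver libraries (points, in replicate order from 1 to 4 within a group), with the mean and SD of each group (bars, n = 4). For every gene the Mat.LERKO points overlap the Mat.Con points, and the Imm.LERKO points overlap the Imm.Con points; Cs at 159 CPM in Imm.LERKO and Idh2 at 79.8 CPM in Mat.LERKO stand away from the rest.

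The first question was whether loss of Esr1 in livers labelled mature went with other levels of these transcripts. None of the 9 genes passed edgeR's quasi-likelihood test at an adjusted p below 0.05, where 0.00747% of all tested genes, Esr1 alone, passed. None had an unadjusted p below 0.05, against 7.3% of all tested genes, and in none did the 4 Mat.LERKO values lie wholly above or below the 4 Mat.Con values, against 3.9% of all genes. The log2 fold changes ran from -0.09 for Pdha1 to 0.09 for Idh3a and for Fh1, with a median of -0.04, beside -0.01 over all tested genes, and the median was 0.03 without library 4 of Mat.LERKO. The median size of the log2 fold change was 0.05, beside 0.13 over all tested genes. For all 9 genes the 95% interval lay within a 1.5-fold change either way, as it did for 58.5% of all tested genes. In bulk liver, fewer cells of a type and less RNA per cell cannot be told apart, and this holds for every comparison here. The summed level of 8 stellate cell markers was at 96.1 to 360 CPM in Mat.LERKO livers, against 386 to 496 CPM in Mat.Con livers, and that of 8 endothelial markers was at 92.3 to 225 CPM in Mat.LERKO livers, against 203 to 287 CPM in Mat.Con livers; no marker of either list was at 0 in every library. Both low ends came from library 4 of Mat.LERKO, the one with high Saa1. The remaining Mat.LERKO livers were at 281 to 360 CPM for the stellate and 201 to 225 CPM for the endothelial sum. The part of these cells in the levels of the 9 genes was not tested.

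Gene positions below use GRCm38 (mm10) as annotated by GENCODE vM21. Pdha1 (chrX:160122209-160138413, minus strand) encodes the alpha subunit of the E1 component of pyruvate dehydrogenase, which commits pyruvate to acetyl-CoA. It was at 116, 121, 104 and 83.4 CPM in Mat.LERKO livers, against 113, 107, 108 and 124 CPM in Mat.Con livers. The groups overlapped, and library 4 of Mat.LERKO, the one with high Saa1, was the lowest of all 16. The log2 fold change was -0.09 ± 0.13 (SE; adjusted p = 0.9 in edgeR, 95% interval -0.36 to 0.17), and without that library it was 0.04. Exons of Pdha1 overlap those of Map3k15 on the opposite strand by 603 bases, but Map3k15 was at no more than 1.45 CPM in any library. No other gene of the 9 shares exon bases with another annotated gene.

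Cs (chr10:128337734-128362479, plus strand) encodes citrate synthase, which opens the cycle. In Mat.LERKO livers Cs was at 97.7, 87.6, 95 and 103 CPM, against 102, 103, 91.2 and 100 CPM in Mat.Con livers. Both groups lay within the same narrow range. On the log2 scale the difference was -0.05 ± 0.16 (SE; adjusted p = 0.971 in edgeR).

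Idh2 (chr7:80094846-80115392, minus strand) encodes the NADP-linked isocitrate dehydrogenase of mitochondria, which supplies NADPH there, and Idh3a (chr9:54586334-54604661, plus strand) the catalytic subunit of the NAD-linked enzyme that serves the cycle. Idh2 was at 147, 184, 171 and 79.8 CPM in Mat.LERKO livers, against 130, 167, 167 and 139 CPM in Mat.Con livers. Library 4 of Mat.LERKO was again the lowest of all 16, while the other 3 Mat.LERKO livers lay within or above the Mat.Con range. The log2 fold change of Idh2 was -0.05 ± 0.21 (SE; adjusted p = 0.977 in edgeR), and without library 4 it was 0.18. Idh3a ran from 26.8 to 33.8 CPM in Mat.LERKO livers and from 26.2 to 33.9 CPM in Mat.Con livers, with a difference of 0.09 ± 0.11 on the log2 scale (SE; adjusted p = 0.888 in edgeR).

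Ogdh (chr11:6291633-6356642, plus strand) and Dlst (chr12:85110833-85134845, plus strand) encode the E1 and E2 components of the 2-oxoglutarate dehydrogenase complex, which makes succinyl-CoA. Ogdh ran from 188 to 266 CPM in Mat.LERKO livers and from 206 to 257 CPM in Mat.Con livers, so the Mat.LERKO livers held both the lowest and the highest value. Dlst ran from 136 to 170 CPM in Mat.LERKO livers and from 154 to 164 CPM in Mat.Con livers. The log2 fold changes were -0.07 ± 0.11 for Ogdh and -0.04 ± 0.10 for Dlst (SE), and without library 4 of Mat.LERKO that of Ogdh was 0.04.

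Suclg1 (chr6:73248382-73276911, plus strand) encodes the alpha subunit of succinyl-CoA ligase, which yields a nucleoside triphosphate directly. It ran from 178 to 196 CPM in Mat.LERKO livers and from 176 to 201 CPM in Mat.Con livers, with the smallest log2 fold change of the 9, -0.02 ± 0.10 (SE). Fh1 (chr1:175600374-175625635, minus strand) encodes fumarase, which hydrates fumarate to malate. Fh1 was at 148, 147, 142 and 207 CPM in Mat.LERKO livers, against 166, 141, 164 and 137 CPM in Mat.Con livers. Here library 4 of Mat.LERKO was the highest of all 16, and the other 3 lay inside the Mat.Con range. The log2 fold change of Fh1 was 0.09 ± 0.15 (SE; adjusted p = 0.929 in edgeR) and -0.02 without that library. Mdh2 (chr5:135778480-135790398, plus strand) encodes mitochondrial malate dehydrogenase, which restores oxaloacetate and takes part in the malate-aspartate shuttle. Mdh2 ran from 157 to 175 CPM in Mat.LERKO livers and from 162 to 173 CPM in Mat.Con livers, with a log2 fold change of -0.04 ± 0.11 (SE).

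The same question was asked of livers labelled immature. Again none of the 9 genes passed the edgeR test, where 0.00747% of all tested genes, again Esr1 alone, passed. None had an unadjusted p below 0.05, against 2.76% of all tested genes, and none separated the 4 Imm.LERKO from the 4 Imm.Con livers, against 1.63% of all genes. The log2 fold changes ran from -0.11 for Suclg1 to 0.24 for Cs, with a median of 0.08, beside 0.01 over all tested genes, and the median was -0.01 without library 4 of Imm.LERKO. The median size was 0.10, beside 0.11 over all tested genes. All 9 intervals lay within 1.5-fold, as for 61.6% of all tested genes. Cs and Fh1 had the largest values, and both were smaller without library 4 of Imm.LERKO, the one with 163 CPM of muscle markers and high Acly.

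Cs was at 93, 90.7, 94.9 and 159 CPM in Imm.LERKO livers, against 91.2, 84.5, 116 and 79.6 CPM in Imm.Con livers. Library 4 of Imm.LERKO was the highest of all 16, and the other 3 Imm.LERKO livers lay inside the Imm.Con range. For Cs the log2 fold change was 0.24 ± 0.16 (SE; adjusted p = 1 in edgeR, 95% interval -0.11 to 0.58), and without library 4 of Imm.LERKO it was 0.00. Without library 3 of Imm.Con it was 0.36. Over the 16 livers, Cs and Acly, the ATP citrate lyase that splits exported citrate in the cytosol, were highest in the same library, and the 2nd highest Cs value, 116 CPM in library 3 of Imm.Con, stood beside the 2nd highest Acly value, 580 CPM. The cytosolic malic enzyme Me1, named after its values were seen, was at 480 CPM in library 4 of Imm.LERKO, against at most 211 CPM elsewhere. Libraries 1, 2, 3 and 4 of Mat.Con had 827, 344, 0.715 and 59.1 CPM of muscle markers. Their Cs values were 102, 103, 91.2 and 100 CPM. The parts of the Acly level and of muscle transcripts in the Cs value were not tested.

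**Figure D2:**
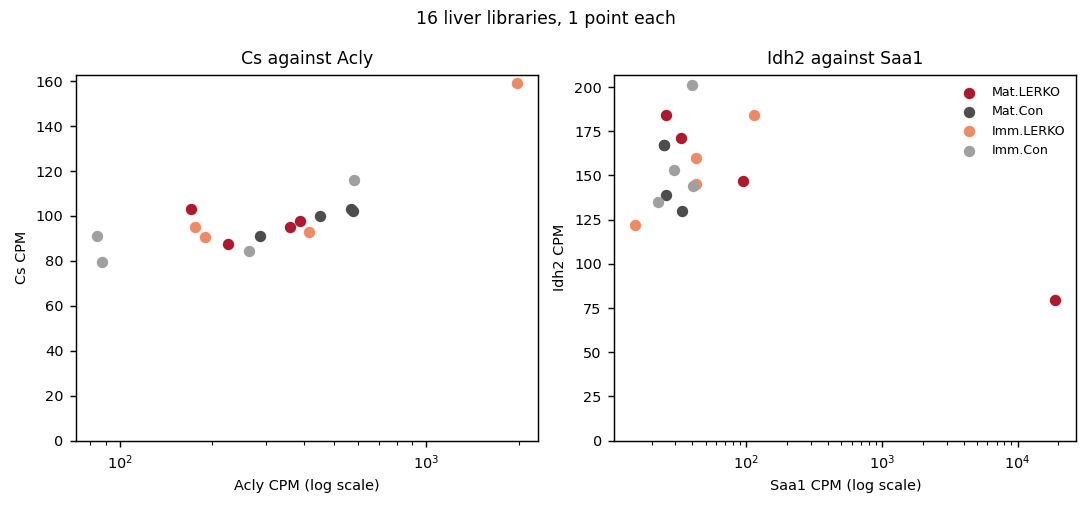
Cs against Acly (left) and Idh2 against Saa1 (right) in CPM, 1 point for each of the 16 livers, coloured by group, with a log scale on both x axes. Cs at 159 CPM goes with Acly at 1978 CPM in library 4 of Imm.LERKO, and Idh2 at 79.8 CPM goes with Saa1 at 19031 CPM in library 4 of Mat.LERKO.

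Fh1 was at 154, 127, 129 and 191 CPM in Imm.LERKO livers, against 115, 135, 139 and 129 CPM in Imm.Con livers. The groups overlapped, with libraries 1 and 4 of Imm.LERKO above every Imm.Con liver. The difference on the log2 scale was 0.21 ± 0.15 (SE; adjusted p = 1 in edgeR, 95% interval -0.10 to 0.52) and 0.08 without library 4 of Imm.LERKO. Mdh2 was at 195, 161, 161 and 222 CPM in Imm.LERKO livers, against 159, 162, 190 and 180 CPM in Imm.Con livers. The same 2 Imm.LERKO libraries were highest, and the log2 fold change was 0.10 ± 0.11 (SE) and 0.00 without library 4 of Imm.LERKO. Pdha1 was at 124, 113, 109 and 145 CPM in Imm.LERKO livers, against 117, 107, 135 and 107 CPM in Imm.Con livers, with a log2 fold change of 0.08 ± 0.13 (SE) that was -0.01 without library 4 of Imm.LERKO.

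Suclg1 had the lowest log2 fold change in immature livers. It was at 187, 186, 226 and 183 CPM in Imm.LERKO livers, against 221, 185, 199 and 240 CPM in Imm.Con livers. Here library 3 of Imm.LERKO stood above the other 3. Of these, library 4 at 183 CPM lay below the lowest Imm.Con liver, at 185 CPM, and libraries 1 and 2 lay just above it. The log2 fold change was -0.11 ± 0.10 (SE; adjusted p = 1 in edgeR). It was -0.19 without library 3 of Imm.LERKO and -0.04 without library 4 of Imm.Con. Idh2 was at 184, 122, 160 and 145 CPM in Imm.LERKO livers, against 153, 135, 144 and 201 CPM in Imm.Con livers, a wide scatter in both groups with a log2 fold change of -0.05 ± 0.21 (SE). Idh3a ran from 25.9 to 33.5 CPM in Imm.LERKO livers and from 24.5 to 31.5 CPM in Imm.Con livers, and the 2 ranges overlapped. Ogdh ran from 201 to 265 CPM in Imm.LERKO livers and from 237 to 246 CPM in Imm.Con livers, and Dlst from 151 to 199 CPM in Imm.LERKO livers and from 154 to 178 CPM in Imm.Con livers. Ogdh varied little among Imm.Con livers, with a coefficient of variation of 1.54%, against 11.2% among Imm.LERKO livers. In mature livers it was 9.43% in Mat.Con and 14.5% in Mat.LERKO. The 1.54% was the smallest of the 36 pairs of a gene and a group, and differences in spread were not tested.

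Averaged over both stages, the log2 fold changes of LERKO over control ran from -0.06 for Suclg1 to 0.15 for Fh1. None of the 9 passed the edgeR test (0.00747% of all tested genes did) or had an unadjusted p below 0.05 (3.69% did), and all 9 intervals lay within 1.5-fold (76.8% did). Fh1 was the gene with the smallest p, at 0.15 ± 0.10 (SE; adjusted p = 0.999 in edgeR), and at 0.08 without library 4 of Imm.LERKO. For Cs the averaged value was 0.09 ± 0.12 (SE), and -0.02 without library 4 of Imm.LERKO.

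Whether the knockout effect differed between stages was tested directly, as the mature minus the immature effect. None of the 9 differences passed the edgeR test (0% of all tested genes passed) or had an unadjusted p below 0.05 (6.35% did). Cs had the largest, at -0.29 ± 0.23 (SE; adjusted p = 0.845 in edgeR, 95% interval -0.77 to 0.20). Without library 4 of Imm.LERKO it was -0.05, and without library 3 of Imm.Con it was -0.41. Intervals lay within 1.5-fold for 7 of the 9 genes, against 38.5% of all tested genes, and the exceptions were Cs and Idh2. For Idh2 the interval ran from -0.63 to 0.63 around a difference of 0.00 ± 0.30 (SE).

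**Figure D3:**
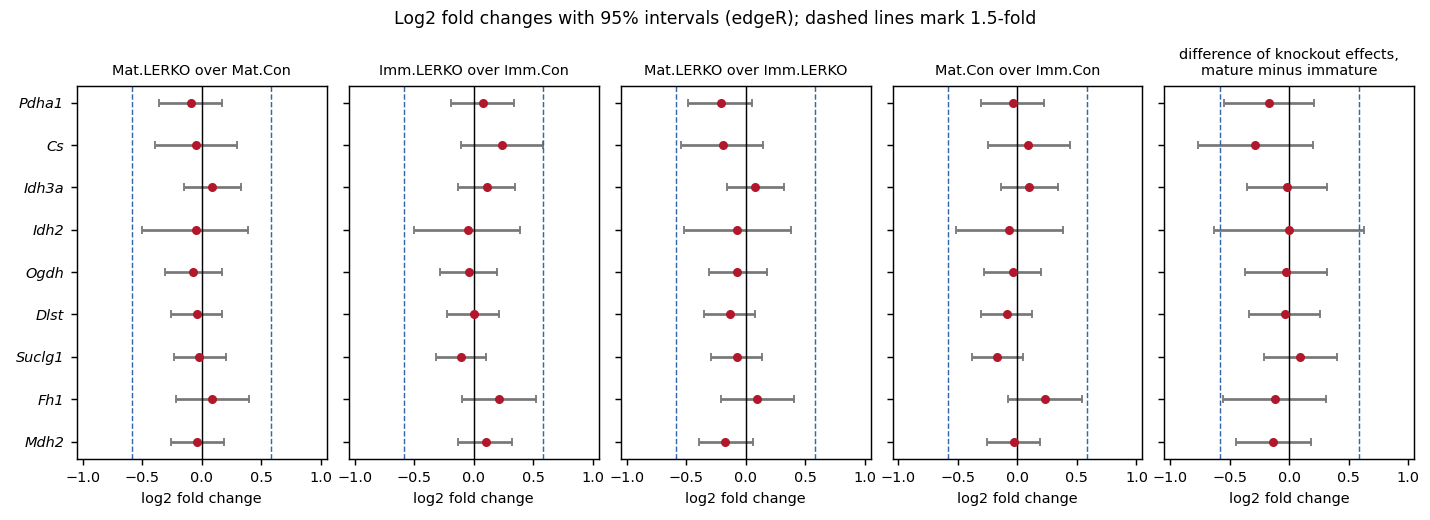
Log2 fold changes of the 9 genes (x axis) with 95% intervals from edgeR for 4 comparisons of groups and for the difference of the knockout effects; dashed lines mark 1.5-fold either way. Every interval includes 0, and the intervals of Cs and Idh2 in the right-hand panel cross a dashed line.

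Stage was compared within each genotype. In LERKO livers none of the 9 genes passed the edgeR test (0% of all tested genes) or had an unadjusted p below 0.05 (4.93%), and none separated Mat.LERKO from Imm.LERKO livers (1.52%). Intervals of all 9 lay within 1.5-fold (59.3%). Pdha1 had the largest value, -0.21 ± 0.13 (SE; adjusted p = 0.955 in edgeR), which was -0.11 without library 4 of Mat.LERKO, and Mdh2 was at -0.17 ± 0.11 (SE; adjusted p = 0.955 in edgeR), which was -0.07 without library 4 of Imm.LERKO. Cs was at -0.19 ± 0.16 (SE), and without library 4 of Imm.LERKO at 0.05. These values use the same Mat.LERKO and Imm.LERKO livers as the knockout comparisons.

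In control livers, likewise, none of the 9 passed the edgeR test (0% of all tested genes) or had an unadjusted p below 0.05 (9.84%), none separated Mat.Con from Imm.Con livers (8.86%), and all 9 intervals lay within 1.5-fold (57.5%). Fh1 had the largest value: it was at 166, 141, 164 and 137 CPM in Mat.Con livers, against 115, 135, 139 and 129 CPM in Imm.Con livers. Only the lowest Mat.Con and the highest Imm.Con liver overlapped, and the log2 fold change was 0.23 ± 0.15 (SE; adjusted p = 0.671 in edgeR). Suclg1 was at 185, 176, 201 and 190 CPM in Mat.Con livers, against 221, 185, 199 and 240 CPM in Imm.Con livers, -0.17 ± 0.10 on the log2 scale (SE; adjusted p = 0.651 in edgeR) and -0.10 without library 4 of Imm.Con. Without library 2 of Imm.Con the value was -0.23. The summed stellate cell markers were at 386 to 496 CPM in Mat.Con livers, against 237 to 316 CPM in Imm.Con livers, and the endothelial markers at 203 to 287 CPM in Mat.Con livers, against 132 to 200 CPM in Imm.Con livers. Both sums separated the groups, and their part in the levels of Fh1, Suclg1 and the other genes was not tested. Averaged over genotypes, the stage effect passed the edgeR test for none of the 9 (0% of all tested genes) and had an unadjusted p below 0.05 for none (7.92%), and all 9 intervals lay within 1.5-fold (73%). The median of the 9 was -0.07, beside 0.02 over all tested genes, with Pdha1 lowest at -0.13 ± 0.09 and Fh1 highest at 0.16 ± 0.10 (SE). The value of Fh1 was 0.09 without library 4 of Mat.LERKO.

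Over the 7 comparisons, 63 tests of the 9 genes had 0.651 as the smallest adjusted p in edgeR, and 61 of the 63 95% intervals lay within 1.5-fold either way. Neither DESeq2 nor limma-voom called any of the 9 or gave any an unadjusted p below 0.05. The widest interval reached 1.71-fold. The intervals are not adjusted for the number of genes tested, and changes of a size inside them remain possible. They are not a limit of detection, since a call needed an adjusted p below 0.05.

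As a sum, the 9 genes took 1274, 1378, 1239 and 1183 CPM in Mat.LERKO livers, against 1277, 1260, 1341 and 1300 CPM in Mat.Con livers. They took 1401, 1218, 1259 and 1514 CPM in Imm.LERKO livers, against 1300, 1234, 1368 and 1374 CPM in Imm.Con livers. The group means were 1268 ± 82.2 in Mat.LERKO, 1295 ± 35.2 in Mat.Con, 1348 ± 136 in Imm.LERKO and 1319 ± 65.8 CPM in Imm.Con (SD, n = 4 each). Library 4 held the lowest sum of all in Mat.LERKO and the highest of all in Imm.LERKO. In neither of these livers did all 9 genes lie on the same side of the group mean. In library 4 of Mat.LERKO, Idh2 lay 0.80 below and Fh1 0.38 above the group mean of log2 CPM, with 3 genes above and 6 below. In library 4 of Imm.LERKO, 7 genes lay above the group mean and 2 below, from Suclg1 at -0.09 to Cs at 0.58. Library 2 of Imm.LERKO was the most one-sided of all, with 1 gene above the group mean and 8 below.

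**Figure D4:**
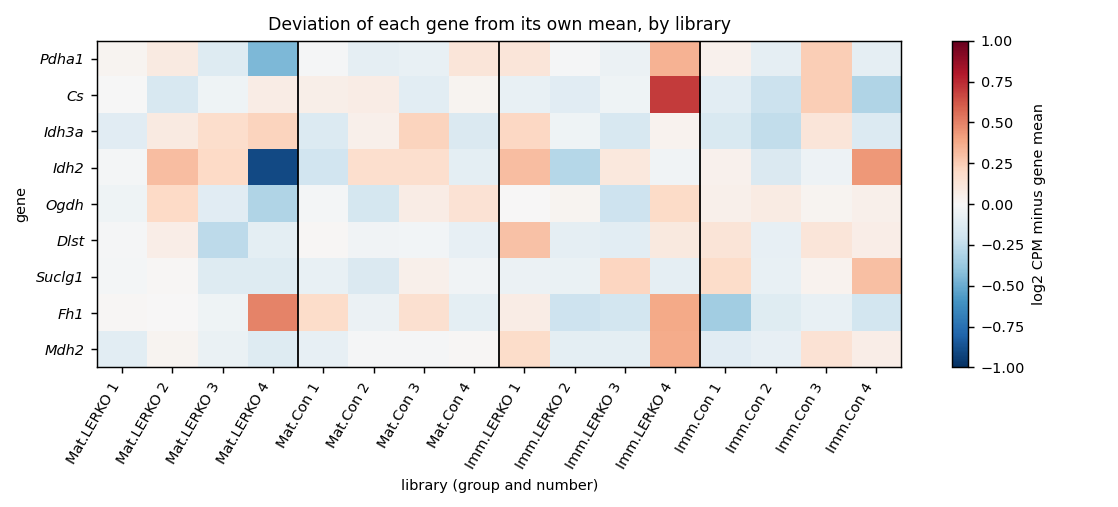
Deviation of log2 CPM of each of the 9 genes from its own mean over 16 livers (colour, from blue for lower to red for higher), by library, with black lines between groups. The darkest cells are Idh2 in library 4 of Mat.LERKO (79.8 CPM) and Cs in library 4 of Imm.LERKO (159 CPM).

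The genes most like the mean of the 9, by Pearson correlation of log2 CPM over the 16 libraries among 5850 other genes whose mean log2 CPM was 4 or more, were Atp5a1 (r = 0.93), Ndufv1 (r = 0.863), Txn2 (r = 0.846), Vcl (r = 0.845) and Ndufs1 (r = 0.819). Atp5a1 encodes the alpha subunit of ATP synthase, Ndufv1 and Ndufs1 encode core subunits of respiratory complex I, Txn2 encodes mitochondrial thioredoxin, and Vcl encodes vinculin of cell adhesions. The correlations describe libraries that share scaling and the 2 libraries numbered 4 that stand apart, and the genes were the top of a ranking.

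**Figure D5:**
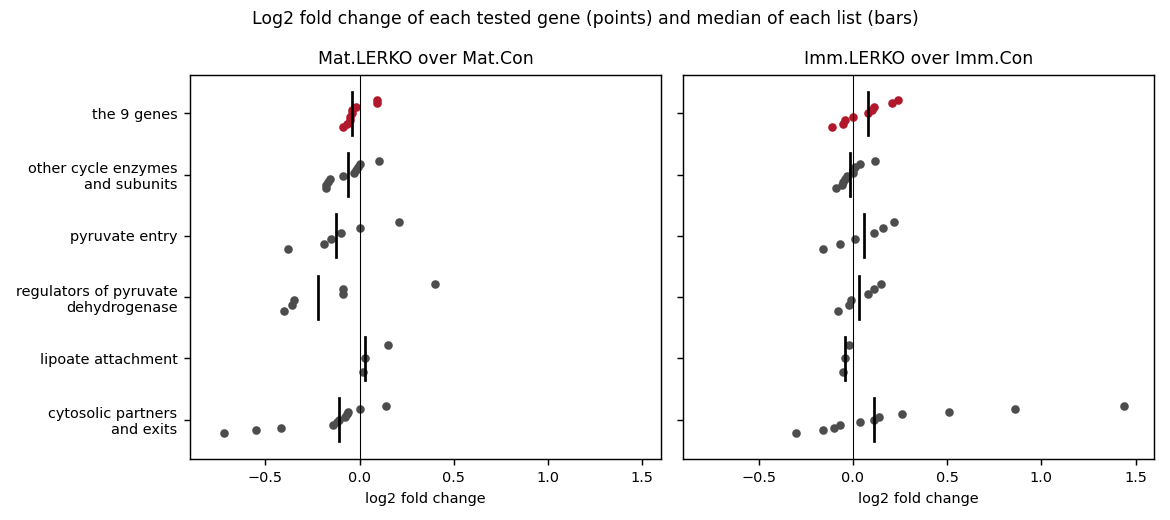
Log2 fold change (x axis) of each tested gene of the 9 and of 5 related lists in Mat.LERKO over Mat.Con and Imm.LERKO over Imm.Con livers (points), with the median of each list (bars). The 9 genes lie between -0.11 and 0.24, and the widest spread is that of the cytosolic partners, with Acly at 1.44 in immature livers.

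Around the 9 genes, 6 lists of related genes held 43 genes, of which 37 were tested. None of their 259 tests passed in edgeR, and no gene passed with DESeq2 or limma-voom; 14 of the 259, or 5.41%, had an unadjusted p below 0.05 in edgeR, against 6.11% of the tests of all genes over the 7 comparisons. In the list of 10 other cycle enzymes and subunits, Sdha, the flavoprotein of succinate dehydrogenase, had the most counts. Sdha averaged 438 ± 74.9 CPM in Mat.LERKO and 467 ± 24.4 CPM in Mat.Con livers (SD, n = 4 each). The median log2 fold change of this list was -0.06 in mature and -0.02 in immature livers. Idh3g, a regulatory subunit of the enzyme of Idh3a, had the smallest p of this list in each knockout comparison. It was at 53.5, 51.2, 47.2 and 46.8 CPM in Mat.LERKO livers, against 54.8, 55.3, 53.9 and 60.7 CPM in Mat.Con livers. In 3.9% of all tested genes the Mat.LERKO and Mat.Con values did not overlap, in either direction. All 4 Mat.LERKO values lay below all 4 Mat.Con values for Idh3g and for its partner subunit Idh3b, named after its values were seen. Their log2 fold changes were -0.18 ± 0.08 (SE; adjusted p = 0.683 in edgeR) for Idh3g and -0.16 ± 0.08 (SE; adjusted p = 0.711 in edgeR) for Idh3b, the value of Idh3b being -0.06 without library 4 of Mat.LERKO, beside 0.09 ± 0.11 (SE) for Idh3a. Dld, the E3 component shared by the dehydrogenase complexes, had a stage effect of -0.14 ± 0.06 averaged over genotypes (SE; adjusted p = 0.584 in edgeR), and Sdhb, the iron-sulphur subunit of succinate dehydrogenase, a difference of knockout effects of -0.30 ± 0.17 (SE; adjusted p = 0.775 in edgeR).

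Of 6 genes of pyruvate entry, Pcx, the pyruvate carboxylase that makes oxaloacetate, and Mpc2, a subunit of the mitochondrial pyruvate carrier, had the most counts. Pcx averaged 709 ± 164 CPM in Mat.LERKO and 612 ± 89.1 CPM in Mat.Con livers (SD, n = 4 each). Dlat, the E2 component of pyruvate dehydrogenase, was at 44.7, 35.8, 35.2 and 29.4 CPM in Mat.LERKO livers, against 46.4, 50.9, 45.9 and 46.3 CPM in Mat.Con livers. All Mat.LERKO values lay below all Mat.Con values, as for 3.9% of all tested genes in either direction, and the log2 fold change was -0.38 ± 0.22 on the log2 scale (SE; adjusted p = 0.717 in edgeR). In immature livers Dlat was highest, at 81.6 CPM, in library 4 of Imm.LERKO, the one in which Cs was highest. Between stages in LERKO livers the value of Dlat was -0.47 ± 0.22 (SE; adjusted p = 0.955 in edgeR) and -0.14 without that library. Pdhb, the beta subunit beside Pdha1 in E1, had a difference of knockout effects of -0.41 ± 0.20 (SE; adjusted p = 0.774 in edgeR), beside -0.17 ± 0.18 (SE) for Pdha1. The carrier subunits Mpc1 and Mpc2 had stage effects of -0.24 ± 0.10 and -0.33 ± 0.16 averaged over genotypes (SE; adjusted p = 0.56 and 0.628 in edgeR), and that of Mpc2 was -0.17 without library 3 of Imm.LERKO.

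Among 7 regulators of pyruvate dehydrogenase, 6 were tested. The kinases Pdk1 and Pdk2, which phosphorylate and so inhibit the enzyme of Pdha1, both averaged 130 CPM over all livers. In mature livers their log2 fold changes were -0.36 ± 0.20 for Pdk1 and -0.35 ± 0.18 for Pdk2 (SE; adjusted p = 0.713 and 0.711 in edgeR). Pdk1 was at 152, 131, 120 and 76.6 CPM in Mat.LERKO livers, against 150, 159, 143 and 163 CPM in Mat.Con livers, and its value was -0.17 without library 4 of Mat.LERKO. Pdk2 was at 141, 115, 75.6 and 130 CPM in Mat.LERKO livers, against 166, 119, 149 and 152 CPM in Mat.Con livers, and its value was -0.18 without library 3 of Mat.LERKO. Pdk4, the kinase known to rise with fasting, ran from 1.66 to 17.4 CPM in Mat.LERKO livers and from 8.6 to 38.7 CPM in Imm.LERKO livers, and its stage effect of -0.98 ± 0.61 (SE; adjusted p = 0.955 in edgeR) was -0.12 without library 3 of Imm.LERKO. Without library 1 of Mat.LERKO this effect was -1.62. The 3 genes of lipoate attachment, which arms Dlst and Dlat with their cofactor, were at low levels, led by Lias at 20.7 and Lipt1 at 4.92 CPM over all livers. Their log2 fold changes in mature livers lay between 0.02 and 0.15.

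Of 12 cytosolic partners and exits from the cycle, 11 were tested. Pck1, the carboxykinase that turns oxaloacetate into phosphoenolpyruvate for gluconeogenesis, had the most counts. It was at 2961, 2222, 2223 and 2303 CPM in Mat.LERKO livers, against 4162, 2320, 3900 and 3819 CPM in Mat.Con livers. The 2 groups overlapped only through library 2 of Mat.Con, with 344 CPM of muscle markers. Library 1 of Mat.Con, with 827 CPM of muscle markers, had the highest Pck1 of the 2 groups. For Pck1 the log2 fold change was -0.55 ± 0.20 (SE; adjusted p = 0.566 in edgeR), -0.67 without the 3 libraries richest in muscle markers, and -0.42 ± 0.14 averaged over stages (SE; adjusted p = 0.999 in edgeR). In mature livers it was -0.70 without library 2 of Mat.Con and -0.46 without library 1 of Mat.Con. The part of muscle transcripts in the Pck1 level was not tested. Glud1, glutamate dehydrogenase, which feeds 2-oxoglutarate to the cycle, averaged 1246 ± 152 CPM in Mat.LERKO and 1130 ± 20.4 CPM in Mat.Con livers (SD, n = 4 each). Acly had the widest effects. It was at 415, 189, 176 and 1978 CPM in Imm.LERKO livers, against 84.3, 263, 580 and 87.6 CPM in Imm.Con livers, 1.44 ± 0.72 on the log2 scale (SE; adjusted p = 1 in edgeR) that was 0.03 without library 4 of Imm.LERKO. Without library 3 of Imm.Con the value was 2.25. The difference of knockout effects of Acly was -2.16 ± 1.01 (SE; adjusted p = 0.774 in edgeR). It was -0.75 without library 4 of Imm.LERKO and -2.96 without library 3 of Imm.Con. Me2, a mitochondrial malic enzyme, was low throughout. It was at 2.28, 2.51, 2.99 and 2.86 CPM in Mat.Con livers, against 2.23, 2.17, 1.31 and 1.42 CPM in Imm.Con livers. These groups did not overlap, as for 8.86% of all tested genes, and differed by 0.58 ± 0.22 on the log2 scale (SE; adjusted p = 0.406 in edgeR), and averaged over genotypes it was 0.57 ± 0.16 (SE; adjusted p = 0.374 in edgeR). Stellate and endothelial marker sums also separated these control groups, as given above.

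Among 5 paralogs of the 9 genes, Pdha2, Csl and Mdh1b had 0 counts in every library, and Ogdhl had at most 6 counts in any. A count of 0 allows a level of up to 0.126 to 0.178 CPM, depending on the library (3 counts in it; counting error only). Dhtkd1, which serves lysine breakdown with an enzyme related to Ogdh, averaged 57.7 CPM over all livers, with log2 fold changes of -0.10 in mature and 0.00 in immature livers.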

How the data were processed

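Column-purified total RNA from individual mouse livers was made into stranded paired-end mRNA libraries, per the labels' protocols. The submitters' processing notes name the build mm10 and the tools STAR, limma and R 4.05. Not given in the sources used here are what each tool did, which program counted, and its gene models and strand setting. Values in the deposited table are counts per gene without visible normalization. In 5 columns the deposited values are estimated counts, since 10 values over all columns are not whole; these were rounded.

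All 16 libraries were fitted together with edgeR 4.0.16 in R 4.3.3: TMM factors, filterByExpr (minimum count 10, minimum total 15), 1 coefficient per group, the quasi-likelihood test and Benjamini-Hochberg adjustment over 13379 genes, with a threshold of 0.05. SEs were taken from the F statistic and 95% intervals from its degrees of freedom. The procedure was tested on simulated data. DESeq2 1.42.0 and limma-voom (limma 3.58.1), other scalings and filters, and leaving out libraries were alternatives. RPKM used exon lengths of GENCODE vM21 (GRCm38), matched for 35465 of 35502 identifiers; promoters came from RefSeq GRCm38.p6.

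The 9 genes, the related lists and the markers were chosen with earlier results of these data known. Of each related list, where no gene passed the threshold, the text names the 2 with the highest mean CPM and those with the smallest p in a comparison, or some of these; other names are marked, and 1 gene the rule would name is not reported here. The common biological coefficient of variation was 21.2%.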

Additional observations from a re-analysis of the deposited data

Results flagged for a closer look

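In 3 of the 36 pairs of a gene of the 9 and a group, 1 library stood apart by Dixon's ratio, the gap to its nearest neighbour divided by the range of the group. Chance flags about 1 in 20 groups. Cs was at 159 CPM in library 4 of Imm.LERKO, against 90.7 to 94.9 CPM in the other 3 (ratio 0.939). Suclg1 was at 226 CPM in library 3 of Imm.LERKO, against 183 to 187 CPM (0.916). Fh1 was at 207 CPM in library 4 of Mat.LERKO, against 142 to 148 CPM (0.909).

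Over these and the other genes given with group levels, 12 of 124 groups were marked in this way. In library 4 of Imm.LERKO, Acly was at 1978 CPM, against 176 to 415 CPM in the other 3 (0.867), and Pdk1 at 172 CPM, against 110 to 115 CPM (0.913). In library 4 of Mat.LERKO, Mpc1 was at 136 CPM, against 182 to 190 CPM (0.843). Pdk4 was at 38.7 CPM in library 3 of Imm.LERKO, against 8.6 to 9.35 CPM (0.975), and at 20.3 CPM in library 2 of Mat.Con, against 7.21 to 8.98 CPM (0.865). Dlat was at 50.9 CPM in library 2 of Mat.Con, against 45.9 to 46.4 CPM (0.911), and at 58.7 CPM in library 3 of Imm.Con, against 39.3 to 41.7 CPM (0.875). Pck1 was at 2961 CPM in library 1 of Mat.LERKO, against 2222 to 2303 CPM (0.89). Dhtkd1 was at 74.1 CPM in library 1 of Imm.LERKO, against 51.3 to 54.3 CPM (0.867).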

How the results depend on the processing

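DESeq2 called 27 genes in mature LERKO against mature control, 13 in immature LERKO against immature control, 3 in the averaged knockout effect, 74 for stage in control livers, 6 for stage in LERKO livers, 29 for stage averaged over genotypes and 22 for the difference of knockout effects, where edgeR called 1, 1, 1, 0, 0, 0 and 0; the cause was not tested. With the compared groups alone, edgeR called 6 genes for stage in control livers. Leaving out 1 library at a time, edgeR called 1 to 2 genes in mature LERKO against mature control, 1 in the immature comparison and in the averaged effect, 0 to 1 for stage in control and in LERKO livers, and 0 for the last 2. None of the 9 genes was called under any alternative (smallest adjusted p 0.284).

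Of 1485 values of the 9 genes under alternatives, 59 changed direction, none of these from a size above 0.19. The other 1426 kept the direction or were not counted as changed because a value rounded to 0.00. With library size alone, which shifts the median of all genes by up to -0.12 (in the difference of knockout effects), Idh2 and Ogdh were at 0.01 and 0.02 in immature LERKO against immature control, Idh2, Ogdh, Mdh2 and Pdha1 at 0.02, 0.04, 0.05 and 0.04 for stage in control livers, and Suclg1 at -0.03 for the difference. With at least 1 CPM in 4 libraries, Pdha1 was at 0.01 in the averaged knockout effect. Without the 3 libraries with most muscle transcripts, an alternative added after seeing the data, Pdha1 was at -0.01 in immature LERKO against immature control, Mdh2 at -0.03 in the averaged effect, Ogdh at 0.05 for stage in control livers, Cs at 0.03 for stage in LERKO livers, Cs and Ogdh at 0.04 and 0.02 for stage averaged over genotypes, and Fh1 at 0.02 for the difference. Leaving out 1 library at a time changed the sign of 28 of the 63 log2 fold changes, not counting values that round to 0.00. Of those at 0.00 with all libraries, Dlst in immature LERKO against immature control ran from -0.09 to 0.05. Idh2 in the difference of knockout effects, also at 0.00, ran from -0.13 to 0.22. In mature LERKO against mature control, the ranges were -0.19 to 0.18 for Idh2, -0.16 to 0.04 for Ogdh, -0.09 to 0.02 for Dlst, -0.04 to 0.03 for Suclg1, -0.02 to 0.15 for Fh1, -0.07 to 0.01 for Mdh2, -0.16 to 0.04 for Pdha1. In immature LERKO against immature control, the ranges were -0.16 to 0.08 for Idh2, -0.11 to 0.02 for Ogdh, -0.01 to 0.15 for Pdha1. In the averaged knockout effect, the ranges were -0.02 to 0.16 for Cs, -0.12 to 0.07 for Idh2, -0.06 to 0.01 for Dlst, -0.02 to 0.06 for Mdh2, -0.05 to 0.06 for Pdha1. For stage in control livers, the ranges were -0.14 to 0.07 for Idh2, -0.09 to 0.02 for Pdha1. For stage in LERKO livers, the ranges were -0.27 to 0.05 for Cs, -0.20 to 0.14 for Idh2, -0.16 to 0.01 for Ogdh, -0.10 to 0.01 for Suclg1, -0.04 to 0.24 for Fh1. For stage averaged over genotypes, the ranges were -0.09 to 0.07 for Cs, -0.14 to 0.03 for Idh2. For the difference of knockout effects, the ranges were -0.10 to 0.06 for Idh3a, -0.12 to 0.07 for Ogdh, -0.09 to 0.06 for Dlst, -0.25 to 0.01 for Fh1. Some values kept their sign but moved either way. Fh1 ran from 0.08 to 0.28 in immature LERKO against immature control. Pdha1 ran from -0.29 to -0.11, Mdh2 from -0.23 to -0.07 and Dlat from -0.61 to -0.14 for stage in LERKO livers. In mature LERKO against mature control, Pdk1 ran from -0.49 to -0.17 and Pdk2 from -0.46 to -0.18.

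No paired analysis was possible because the labels give the mice no shared numbers. Each of the 9 genes had at least 464 counts in every library.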
